A study of Danio rerio with 8 samples.

Results

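The genes described here are the enzymes and carriers of fatty acid oxidation and of the tricarboxylic acid (TCA) cycle in the injured zebrafish ventricle. They were chosen by name from the pathways, with no measured value in the rule, though earlier results of these data were known. The 28 names of fatty acid oxidation matched 28 gene rows and the 15 names of the TCA cycle matched 15, so the 43 rows make up a small part of the 32520 gene rows in the deposited table. RNA was sequenced from the cardiac ventricle of adult zebrafish 7 days after cryoinjury, in which a cold probe kills part of the ventricle wall. The mutant group held fish homozygous for a mutation in cox7a1 (cox7a1-/-), and the control group held their wildtype siblings. All fish in both groups were injured, and no uninjured heart is analysed here. Each of the 8 libraries was a pool of 5 ventricles, with 4 pools per genotype, so the spread given below is between pools and not between single fish. The labels name neither the mutant allele nor the age of the fish.

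Long-chain fatty acids are the main fuel of the working adult heart in mammals. They are bound and activated to acyl-CoA in the cytosol, pass into the mitochondrion as carnitine esters, and are shortened step by step by β-oxidation, which releases acetyl-CoA and passes electrons to the respiratory chain. The TCA cycle then oxidises the acetyl-CoA, and its NADH also feeds the respiratory chain, of which Cox7a1 is a muscle-type subunit at the last complex. The roles given below for single genes are those known from mammals. After heart injury in zebrafish, muscle cells at the wound border are known to lower genes of mitochondrial metabolism, which a whole-ventricle pool does not resolve.

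The pools held between 41556101 and 69057989 counts, and both extremes were mutant pools, replicates 1 and 4. Levels are given as CPM, counts scaled to a common library size with TMM factors. The targeted gene, cox7a1, was at 209.7, 278, 286 and 211 CPM in the wildtype pools and at 59.5, 113, 88.5 and 194 CPM in the mutant pools. Every mutant pool was below every wildtype pool, and mutant replicate 4 was the closest of them to the wildtype. The log2 fold change was -1.11 ± 0.295 (SE), which did not pass the threshold over all genes (adjusted p = 0.0776, edgeR). It was -1.50 without mutant replicate 4, a pool picked for its cox7a1 level, so this value is no test of cox7a1. Pools also differed in how counts were spread over long and short genes, with mutant replicates on both sides. The mean deviation of the longest genes minus that of the shortest (top and bottom quartile of exonic length) was -0.209 (log2) in mutant replicate 4, 0.20 in mutant replicate 1, 0.179 in mutant replicate 3 and between -0.088 and 0.048 in the other pools. Values without mutant replicate 4, whose cox7a1 level was nearest to the wildtype, and values with this length trend removed are given beside the results. For cox7a1 itself, the log2 fold change with the trend removed in all pools was -1.07 (adjusted p = 0.0451, edgeR), which passed the threshold. It was -1.36 with the trend removed and mutant replicate 4 left out, which is no test of cox7a1 for the same reason. Cardiomyocyte markers such as MYL7 (8422 to 14280 CPM) were abundant in all pools. Further rows of that list were near the floor, such as a row of TNNI1 at 0 in 3 pools and at most 0.1759 CPM. A row of MYH6 was at most at 0.3785 CPM, and a row of TNNT2 ran from 0.7805 to 2.035 CPM. Of the skeletal muscle markers, the myosin gene myhz1.1 was at 0 in 6 pools, while ckmb was at 9.86 to 20.7 CPM and myhz2 reached 37.8 CPM in mutant replicate 1 and at most 5.31 CPM elsewhere. The adipocyte marker plin1 was below 0.24 CPM in each pool, while cfd was at 27.9 to 57.0 CPM and CEBPA at 27.9 to 41.9 CPM.

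None of the 28 fatty acid oxidation genes and none of the 15 TCA cycle genes differed between genotypes past an adjusted p of 0.05 (edgeR's quasi-likelihood test, Benjamini-Hochberg over 17949 genes). Over all tested genes 363 did so, which is 2.02% (1.14% higher and 0.88% lower in mutant pools). DESeq2, with 6.17% of all genes called, and limma-voom, with 2.06%, called 0 genes in either pathway as well. All 43 gene rows passed the filter on low counts, so no member is left out of these counts. At an unadjusted p under 0.05 there were 2 of the 28 fatty acid oxidation genes and 0 of the 15 TCA cycle genes with each of the 3 tools, against 18.0% of all genes with edgeR, 19.1% with DESeq2 and 18.3% with limma-voom. In whole-tissue RNA, fewer cells of a type and less RNA per cell cannot be told apart, and this holds for every value that follows.

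The median log2 fold change, mutant over wildtype, was -0.11 over the fatty acid oxidation genes (from -0.62 to 0.32), with 18 below 0 and 10 above. It was 0.02 over the TCA cycle genes (from -0.15 to 0.30), with 6 below 0 and 9 above, and 0.00 over all tested genes, of which 49.6% were below 0. The smallest adjusted p was 0.144 among the former and 0.495 among the latter (edgeR). The precision of the comparison bounds what could have gone unseen. The 95% interval of the fold change lay within 1.5-fold in either direction for 20 of the 28 fatty acid oxidation genes and for 14 of the 15 TCA cycle genes, and within 2-fold for 26 and for all 15.

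**Figure D1:**
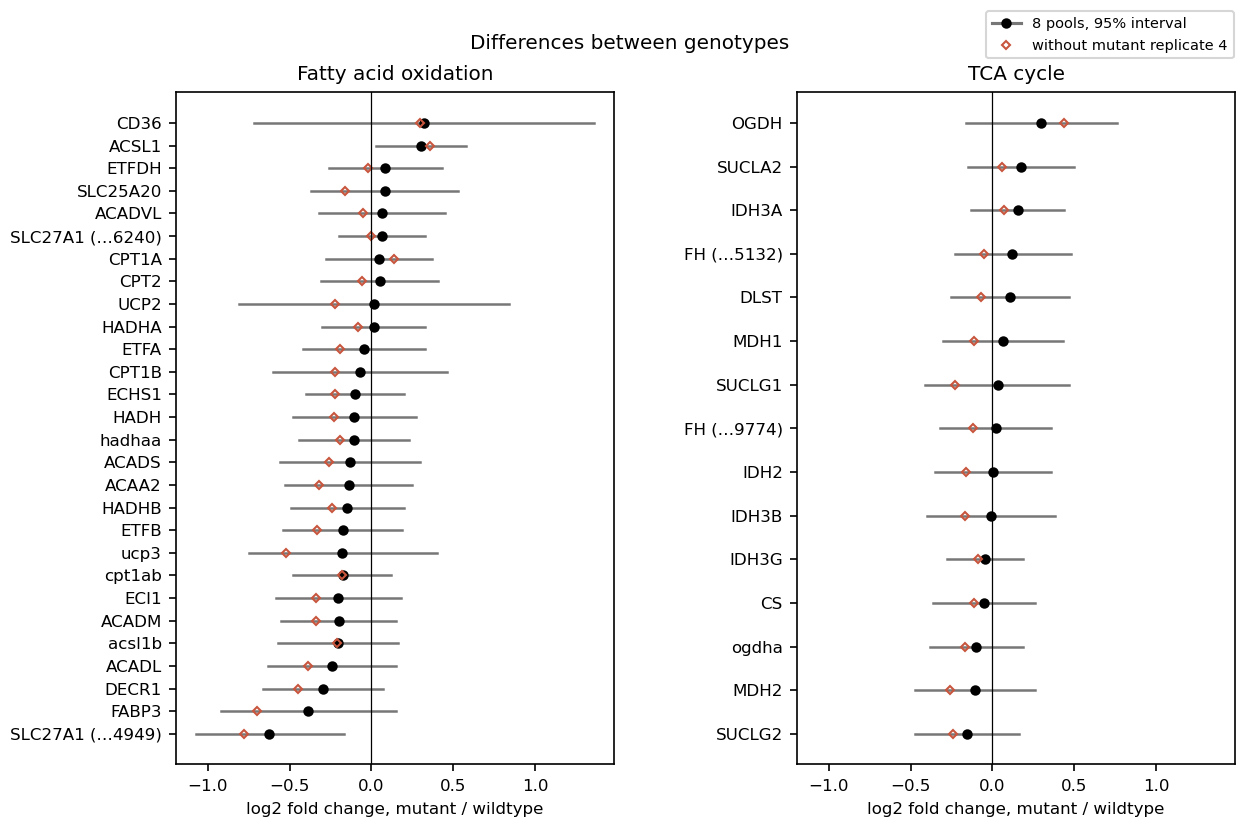
Log2 fold change, mutant over wildtype, of each fatty acid oxidation gene (left) and TCA cycle gene (right), from edgeR. Black points with grey bars are the estimates and 95% intervals from 8 pools, and open red diamonds are the estimates without mutant replicate 4. Only the intervals of ACSL1 and of the chromosome 1 row of SLC27A1 leave out 0, and most diamonds lie to the left of their points.

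Leaving out mutant replicate 4, the highest pool for 13 of the 28 and 10 of the 15 genes, moved both pathways downward. The median became -0.22 for fatty acid oxidation, with 24 of 28 genes below 0, and -0.11 for the TCA cycle, with 12 of 15 below 0, again with 0 genes past the threshold (2.07% of all tested genes). The smallest adjusted p was then 0.0573, for FABP3 (edgeR). At an unadjusted p under 0.05 there were 8 and 1 genes, respectively, against 20.1% of all genes. With the length trend removed as well, the medians were -0.21 and -0.10, with 0 genes past the threshold (1.89% of all genes), and 6 and 1 genes had an unadjusted p under 0.05 (18.7% of all genes). With the length trend removed in all 8 pools, they were -0.09 and 0.06, again with 0 genes past the threshold (2.57% of all genes), and 2 and 0 genes had an unadjusted p under 0.05 (18.6% of all genes). Leaving out mutant replicate 1 instead, often the lowest pool, gave medians of -0.04 and 0.09. The TCA median thus changed its sign with 1 pool. It was also below 0 without wildtype replicate 1 (-0.03), without wildtype replicate 4 (-0.05) and when libraries were scaled by their totals alone (-0.02), so no direction is given for that pathway.

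The 43 genes spanned a wide range of levels. Per kilobase of exon, the mean wildtype level of IDH2 was 2550 ± 260 CPM (SD, n = 4), which ranked 21 among all tested genes. IDH2 is the mitochondrial isocitrate dehydrogenase that makes NADPH. The next levels were those of ACADVL (1030 ± 175), FABP3 (781 ± 165), MDH2 (616 ± 73.2) and MDH1 (596 ± 63.2), of which the last 3 lie within each other's range of error or close to it. CS, citrate synthase, stood at 291 ± 34.9 CPM per kilobase and ACADM at 276 ± 36 (n = 4 each), which their spreads do not separate. At the other end were CPT1A (3.96 ± 0.461), OGDH (2.12 ± 0.499) and CD36 (0.543 ± 0.18). CD36, which takes up fatty acids in mammalian hearts, ranked 14617 among the 17949 tested genes.

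**Figure D2:**
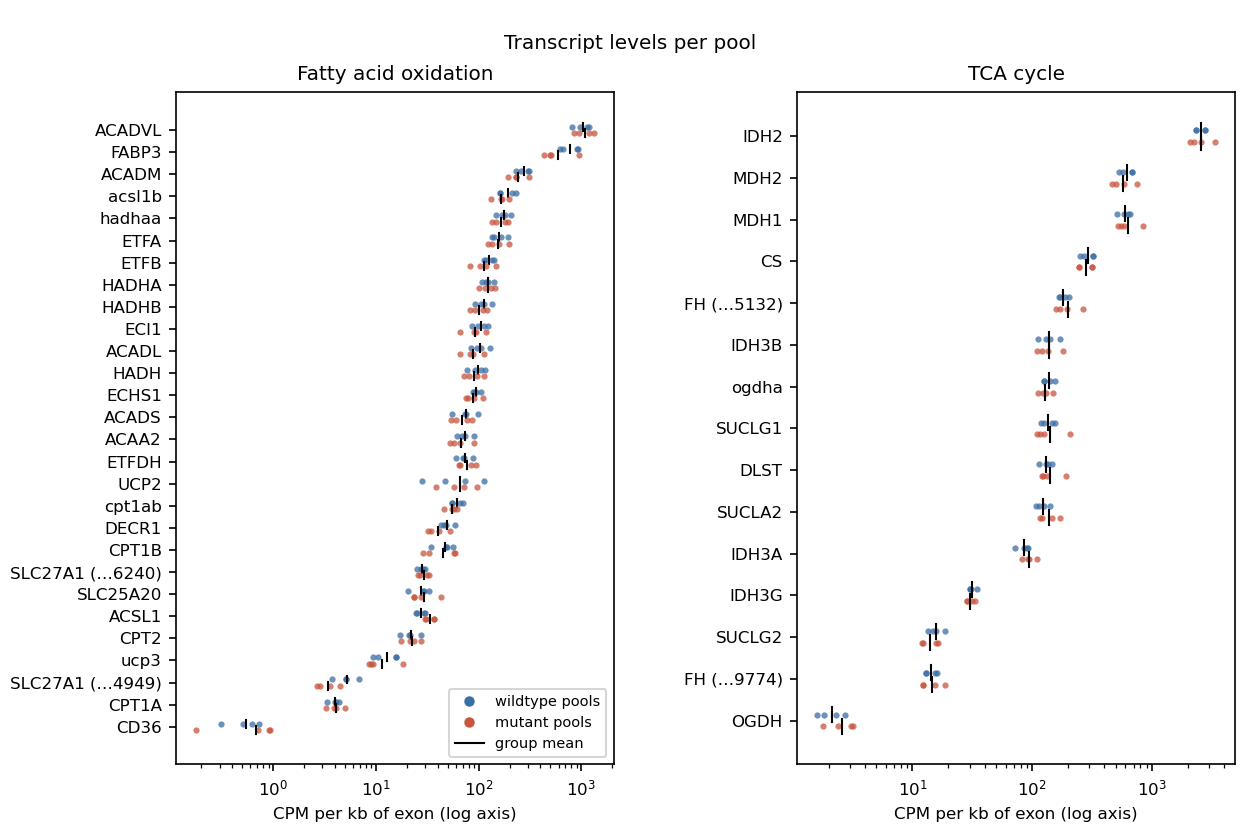
Level of each gene in CPM per kilobase of exon on a log axis, with the genes of each pathway in order of their mean wildtype level. Points are pools (blue wildtype, red mutant, 4 each) and black ticks are group means. The levels span from 0.543 for CD36 to 2550 for IDH2 (wildtype means), while the points of both genotypes lie over each other for nearly all genes.

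Levels differed between pools of the same genotype. Together the fatty acid oxidation genes took 0.963%, 1.21%, 1.17% and 0.895% of scaled counts in wildtype replicates 1 to 4, a mean of 1.06 ± 0.152 (SD, n = 4). In the mutant replicates they took 0.799%, 0.918%, 1.09% and 1.23%, a mean of 1.01 ± 0.189 (SD, n = 4). On this scale both the lowest and the highest pool were mutant, and the groups overlapped. These percentages carry the TMM factors, which ran from 0.8972 in mutant replicate 4 to 1.097 in wildtype replicate 1 (1.08 in mutant replicate 1). A lower factor raises every percentage of its pool, and the order of pools without these factors was not computed. ACADVL holds much of this sum, and over the 27 other genes mutant replicate 1 was still lowest (0.495%) but wildtype replicate 2 was highest (0.794%, against 0.75% in mutant replicate 4). In mean log2 CPM, which weights the 28 genes alike, mutant replicate 1 was lowest (6.69) and mutant replicate 4 highest (7.36). The TCA cycle genes took 0.918%, 1.11%, 1.07% and 0.908% in the wildtype pools and 0.822%, 0.879%, 0.997% and 1.28% in the mutant pools. Again mutant replicate 1 was lowest and mutant replicate 4 highest, on means of 1.00 ± 0.105 and 0.995 ± 0.204 (SD, n = 4). Mutant replicate 4 was the highest pool for 13 of the 28 fatty acid oxidation genes and for 10 of the 15 TCA cycle genes, where it was so for 16.4% of all tested genes. Mutant replicate 1 was the lowest pool for 18 and for 9 genes, where it was so for 13.8% of all genes.

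Cardiomyocyte markers shared this order in their sum but not in their mean log2 level. The 23 marker rows took 11.2%, 12.9%, 13.1% and 12.2% of scaled counts in the wildtype pools and 11.1%, 11.5%, 13.97% and 14.6% in the mutant pools. On this scale they were lowest and highest in the same pools as both pathways. The marker sums carry the same TMM factors as the pathway sums, and the part of these factors in the shared order was not tested. MYH7 makes up much of this sum, and the mean log2 CPM of the marker rows was lowest in wildtype replicate 1 (10.61, against 10.62 in mutant replicate 1) and highest in mutant replicate 3 (11.03, against 11.01 in mutant replicate 4). Of the 21 marker rows tested, 0 passed the threshold and 4 had an unadjusted p under 0.05 (edgeR, 18.0% of all genes), with 1 called by DESeq2 (6.17% of all genes) and 0 by limma-voom. Summed fibroblast and epicardium markers ran from 3562 to 6791 CPM in wildtype and from 5035 to 7082 in mutant pools. Macrophage and neutrophil markers ran from 798 to 1085 CPM and from 688 to 990.5 CPM, and endothelial markers from 1586 to 1787 and from 1522 to 1946. Erythrocyte markers ran from 546 to 932 CPM and from 621 to 1715 CPM. All 4 erythrocyte rows tested had log2 fold changes above 0 (median 0.76, from 0.49 to 2.23), each with overlapping groups. DESeq2 gave 3 of them an unadjusted p under 0.05 (19.1% of all genes) and limma-voom 1 (18.3% of all genes). The 8 adipocyte marker rows summed to 90.1 to 92.5 CPM in wildtype and to 71.9 to 85.7 CPM in mutant pools without overlap, a difference that came from cfd (-0.64, adjusted p = 0.0598, edgeR). Of the 6 adipocyte rows tested, the other 5 had log2 fold changes above 0, and the mean log2 CPM of the list went the other way, from 1.77 ± 0.264 to 2.11 ± 0.19 (SD, n = 4), with overlap. Skeletal muscle markers summed to at most 55.8 and 91.2 CPM. In each of these marker lists 0 genes passed the threshold (edgeR). Rows at an unadjusted p under 0.05 (edgeR) were 1 of 12 fibroblast and epicardium and 2 of 16 macrophage and neutrophil rows tested. They were 1 of 7 endothelial, 2 of 4 erythrocyte, 1 of 6 adipocyte and 0 of 8 skeletal muscle rows, against 18.0% of all genes. DESeq2 called 1 macrophage and neutrophil marker and 1 adipocyte marker (6.17% of all genes), and limma-voom 1 adipocyte marker (2.06% of all genes). The part of these cell types and of gene length in the order of the pools was not tested.

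**Figure D3:**
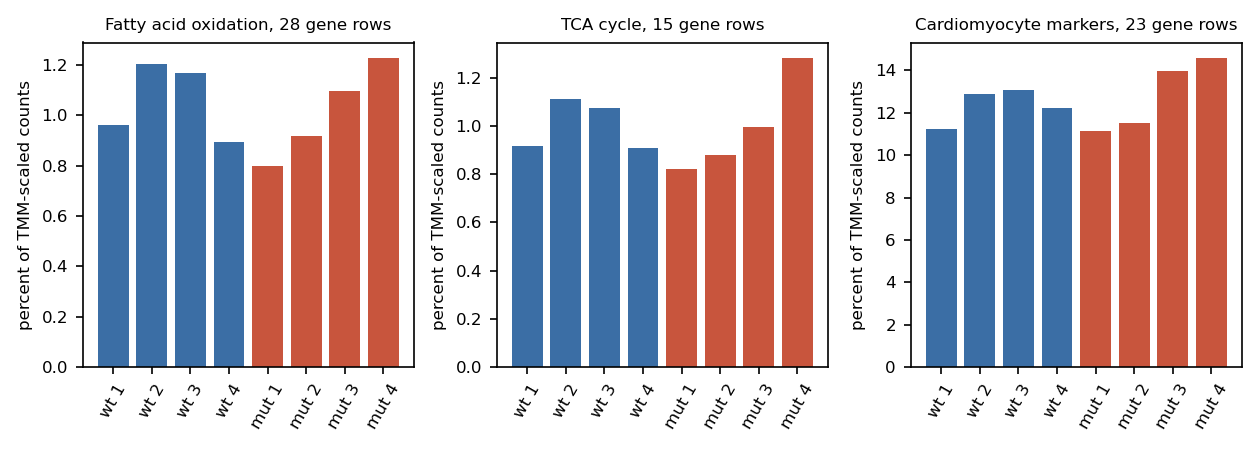
Share of TMM-scaled counts, in percent, taken by the 28 fatty acid oxidation genes, the 15 TCA cycle genes and 23 cardiomyocyte marker rows. There is 1 bar per pool (blue wildtype, red mutant), and each axis starts at 0. The bars carry the TMM factor of each pool, which was lowest in mutant replicate 4 (0.8972) and raises its bars. In these sums mutant replicate 1 is the lowest pool and mutant replicate 4 the highest, at 0.799% and 1.23% for fatty acid oxidation; abundant genes weigh most, and without ACADVL the highest fatty acid oxidation pool is wildtype replicate 2 (0.794%), while by mean log2 CPM the cardiomyocyte markers are lowest in wildtype replicate 1 and highest in mutant replicate 3.

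**Figure D4:**
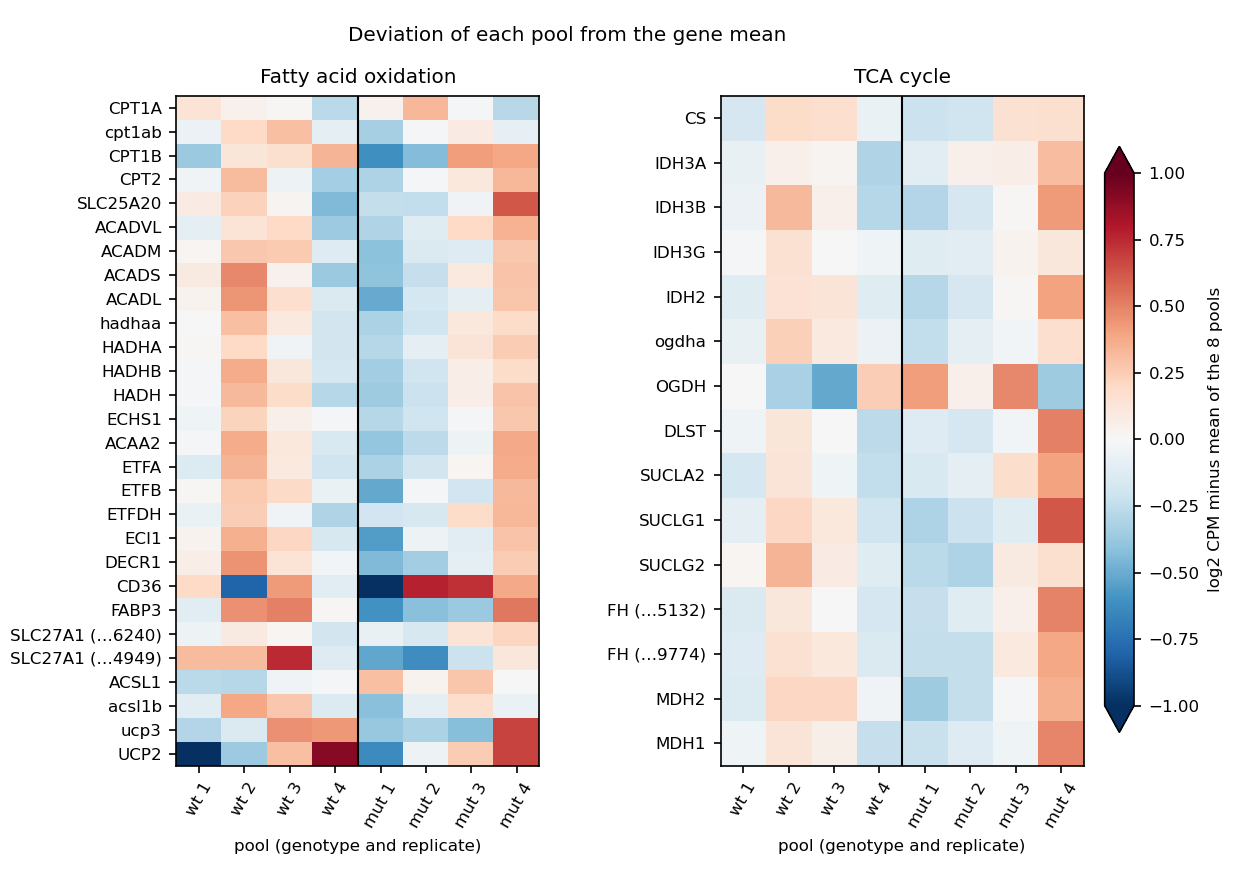
Deviation of each pool from the mean of its gene, in log2 CPM, for fatty acid oxidation (left) and the TCA cycle (right). Columns are wildtype (wt) and mutant (mut) replicates 1 to 4, red is above and blue below the mean, and colours end at 1 in either direction. Most rows are blue in mutant replicate 1 and red in mutant replicate 4, while CPT1A, ACSL1, OGDH, cpt1ab and acsl1b do not share this pattern.

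Genes for the uptake and binding of fatty acids held the lowest fold change. SLC27A1, a fatty acid transport protein, has a pair of rows, and the symbol table does not say which is slc27a1a and which slc27a1b. The row on chromosome 1 (ENSDARG00000104949, 58544659 to 58562129, minus strand, GRCz11) was at 16.0, 16.0, 21.6 and 11.7 CPM in wildtype pools and at 8.96, 8.37, 11.1 and 13.9 CPM in mutant pools. Mutant replicates 1 to 3 lay below all wildtype pools, and mutant replicate 4 lay inside the wildtype range. The log2 fold change was -0.62 ± 0.206 (95% interval from -1.07 to -0.17), with an adjusted p of 0.144 (edgeR), and it stayed between -0.78 and -0.46 when single pools were left out. The row on chromosome 3 (ENSDARG00000006240) was at 79.8, 88.2, 84.1 and 73.1 CPM and at 78.8, 74.3, 91.1 and 96.3 CPM, and the groups overlapped (0.07 ± 0.120).

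FABP3, the heart-type fatty acid binding protein, carries fatty acids through the cytosol. It was at 512, 758, 783 and 555.5 CPM in wildtype pools and at 362, 413, 426 and 797 CPM in mutant pools. Mutant replicates 1 to 3 were below every wildtype pool, whereas mutant replicate 4 was the highest of all pools. The log2 fold change was -0.38 ± 0.245 (95% interval from -0.92 to 0.15, adjusted p = 0.446, edgeR). Without mutant replicate 4 it was -0.70 (adjusted p = 0.0573), and -0.54 with the length trend removed as well (adjusted p = 0.101, edgeR). With each single pool left out in turn it ran from -0.70 to -0.27, so leaving out mutant replicate 4 gave the lowest value. FABP3 has 835 exonic bases, against a median of 2467 over the tested genes. In all, the 3 mutant pools other than replicate 4 lay below every wildtype pool for 4 of the 28 fatty acid oxidation genes (DECR1, FABP3, the chromosome 1 row of SLC27A1 and ucp3) and above for 1, against 9.89% and 9.7% of all tested genes. CD36 was near the floor of the measurement, at 1.17, 0.587, 1.37 and 0.951 CPM in wildtype and at 0.334, 1.74, 1.69 and 1.32 CPM in mutant pools. Its log2 fold change, 0.32 ± 0.474, has a 95% interval from -0.72 to 1.36 and bounds no change smaller than that.

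Activation to acyl-CoA gave the single gene of either pathway whose groups did not overlap. ACSL1 (ENSDARG00000030514, chromosome 1, 17537451 to 17587552, minus strand, GRCz11), a long-chain acyl-CoA synthetase, was at 120.2, 119, 141 and 143 CPM in wildtype pools and at 178, 148, 175.5 and 144 CPM in mutant pools. All mutant pools were above all wildtype pools, the closest of them by less than 1 CPM. The log2 fold change was 0.30 ± 0.125 (95% interval from 0.03 to 0.58), with an unadjusted p of 0.0324 and an adjusted p of 0.229 (edgeR). Over all tested genes, 6.27% were higher without overlap and 5.48% lower, so 1 higher and 0 lower among 28 is no more than the background share. Its paralog acsl1b was the more abundant, at 191 ± 35 against 27.2 ± 2.74 CPM per kilobase (wildtype, SD, n = 4). It was at 1211, 1710, 1577 and 1192 CPM in wildtype pools and at 980.2, 1223, 1477 and 1252 CPM in mutant pools, with overlap (-0.21 ± 0.166).

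No gene of the carnitine shuttle separated the genotypes. CPT1 couples the acyl group to carnitine at the outer mitochondrial membrane and is the regulated step of entry. The muscle-type CPT1B was at 125, 176, 181 and 205 CPM in wildtype pools and at 106, 120.0, 217 and 211 CPM in mutant pools. The mutant pools fell into a low pair and a high pair that spanned the wildtype range (log2 fold change -0.07 ± 0.242, 95% interval from -0.60 to 0.46). Of the liver-type genes, cpt1ab was at 294, 350.2, 375.5 and 288 CPM and at 242, 303, 323 and 289 CPM (-0.18 ± 0.137). CPT1A was at 16.3, 15.3, 14.9 and 12.3 CPM and at 15.2, 18.6, 14.6 and 12.2 CPM (0.05 ± 0.150). Both overlapped between genotypes. Per length, the liver-type cpt1ab made up 55.1 ± 4.91% of the CPT1 transcripts in wildtype and 53.8 ± 6.44% in mutant pools, and CPT1B made up 41.4 ± 5.5% and 42.1 ± 7.74% (SD, n = 4). CPT2, which frees the acyl group again inside the mitochondrion, was at 68.5, 87.3, 67.7 and 55.3 CPM in wildtype pools and at 56.5, 68.9, 75.4 and 88.1 CPM in mutant pools (0.05 ± 0.165). SLC25A20, the carnitine-acylcarnitine carrier between the enzymes, ran from 28.6 to 45.5 CPM and from 32.8 to 59.8 CPM (0.08 ± 0.205).

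In β-oxidation itself, the very-long-chain dehydrogenase ACADVL was the most abundant enzyme, at 3499, 4107, 4302 and 2912 CPM in wildtype pools and at 3033, 3438, 4284 and 4773 CPM in mutant pools. The groups overlapped over most of their range, and the log2 fold change of 0.07 ± 0.177 has a 95% interval from -0.32 to 0.45 (adjusted p = 0.883, edgeR). The medium-, long- and short-chain dehydrogenases ACADM, ACADL and ACADS had log2 fold changes of -0.20, -0.24 and -0.13, each with overlapping groups. Of the genes for the following steps, the hydratase ECHS1 (-0.10), the dehydrogenase HADH (-0.11) and the thiolase ACAA2 (-0.14) overlapped too.

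The trifunctional protein carries out the last 3 steps for long chains and is built from α subunits (hadhaa and HADHA, the row matched to hadhab) and a β subunit (HADHB). The α subunit hadhaa was at 465, 569, 495.5 and 408 CPM in wildtype pools and at 372, 404, 498 and 527 CPM in mutant pools (-0.11 ± 0.152). HADHA was at 383.5, 439, 371.5 and 335 CPM and at 313, 358, 418 and 455 CPM (0.01 ± 0.145). HADHB was at 728, 945, 791 and 649 CPM and at 575, 637, 768 and 834 CPM (-0.15 ± 0.159). All 3 genes overlapped between genotypes and were lowest in mutant replicate 1. The genes hadhaa and HADHB overlap by 478 bases on opposite strands of chromosome 20, and the reads were counted by strand.

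The auxiliary enzymes for unsaturated chains did not pass the test either. DECR1, the 2,4-dienoyl-CoA reductase, ran from 76.1 to 106 CPM with a median of 83.6 in wildtype pools and from 57.4 to 92.9 CPM with a median of 66.9 in mutant pools. Its log2 fold change was -0.30 ± 0.166 (95% interval from -0.66 to 0.07, adjusted p = 0.377), and -0.45 without mutant replicate 4 (adjusted p = 0.116, edgeR). With each single pool left out in turn it ran from -0.45 to -0.19. ECI1, an enoyl-CoA isomerase, had -0.20 ± 0.175. Electrons from the dehydrogenases pass through the flavoprotein of ETFA and ETFB to ETFDH. ETFA was at 225, 314, 264.5 and 216 CPM in wildtype pools and at 199, 217, 251 and 320.2 CPM in mutant pools (-0.04 ± 0.173). ETFB was at 165, 197, 187.5 and 157 CPM and at 115, 162, 143.5 and 205 CPM (-0.17 ± 0.168), and ETFDH had a log2 fold change of 0.08 ± 0.158. The groups overlapped for these 3 genes.

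The uncoupling proteins, inner-membrane carriers whose mammalian genes respond to fatty acids, were the most variable members beside CD36. UCP2 was at 67.1, 111, 176.5 and 268.5 CPM in wildtype pools and at 92.3, 138, 171 and 229 CPM in mutant pools. Its levels varied up to 4-fold within the wildtype group, and the log2 fold change of 0.02 ± 0.375 has a 95% interval from -0.81 to 0.84. Its neighbour ucp3, 5946 bases away on the same strand of chromosome 10, was at 15.8, 17.5, 26.6 and 26.2 CPM and at 14.9, 15.6, 14.5 and 30.9 CPM. Mutant replicates 1 to 3 lay below all wildtype pools and mutant replicate 4 above them (-0.18 ± 0.262, adjusted p = 0.779, and -0.52 without mutant replicate 4, adjusted p = 0.17, edgeR). With each single pool left out in turn, the log2 fold change of ucp3 ran from -0.52 to -0.06.

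In the TCA cycle, CS, which joins acetyl-CoA to oxaloacetate, was at 784, 1002, 990.4 and 841 CPM in wildtype pools and at 761, 769, 979 and 988 CPM in mutant pools. The mutant values spanned nearly the same range, and the log2 fold change of -0.05 ± 0.142 has a 95% interval from -0.36 to 0.26. The NAD-dependent isocitrate dehydrogenase has a catalytic subunit, IDH3A, and the further subunits IDH3B and IDH3G. IDH3A was at 122, 133, 131 and 104 CPM in wildtype pools and at 119, 133, 134 and 159 CPM in mutant pools (0.15 ± 0.128). IDH3B was at 209.8, 274, 227 and 179.7 CPM and at 178, 194.5, 220.1 and 294 CPM (-0.01 ± 0.178). IDH3G was at 77.7, 87.6, 78.4 and 76.5 CPM and at 72.2, 72.6, 80.6 and 84.9 CPM, with the narrowest 95% interval of the pathway, from -0.28 to 0.19 (-0.05 ± 0.107). All 3 subunits overlapped between genotypes. IDH2 ran from 2267 to 2721 CPM in wildtype and from 2018 to 3262 CPM in mutant pools (0.00 ± 0.163).

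The 2-oxoglutarate dehydrogenase complex turns 2-oxoglutarate into succinyl-CoA. Per length, ogdha made up 98.4% of the transcripts of its first subunit in wildtype pools. It was at 802, 997, 903 and 809 CPM in wildtype pools and at 712, 793, 831 and 946 CPM in mutant pools (-0.10 ± 0.131). OGDH, the row matched to ogdhb, was at 15.1, 12.03, 10.6 and 17.9 CPM and at 20.1, 15.6, 21.0 and 11.8 CPM. Mutant replicates 1 and 3 were above all wildtype pools and the others were inside their range, with the highest log2 fold change of the pathway, 0.30 ± 0.209 (95% interval from -0.16 to 0.76, adjusted p = 0.495, edgeR). DLST, the second subunit, ran from 288 to 374 CPM and from 307 to 488 CPM (0.11 ± 0.164).

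Succinyl-CoA ligase splits succinyl-CoA with an α subunit, SUCLG1, and either an ATP-forming β subunit, SUCLA2, or a GTP-forming one, SUCLG2. SUCLA2 was at 241, 297, 263.5 and 228.5 CPM in wildtype pools and at 244, 254, 307 and 359 CPM in mutant pools (0.18 ± 0.149). SUCLG2 was at 35.8, 44.5, 37.4 and 32.4 CPM and at 29.3, 28.5, 37.4 and 39.5 CPM (-0.15 ± 0.143, the lowest of the pathway). Neither gene separated the genotypes. SUCLG1 ran from 187 to 248 CPM and from 174 to 332 CPM (0.03 ± 0.2). FH, the fumarase, has 2 rows, on chromosome 12 (0.12 ± 0.163) and on an unplaced scaffold (0.02 ± 0.155), and reads that fit both places may be lost from either. The mitochondrial malate dehydrogenase MDH2 was at 2193, 2779, 2778 and 2348 CPM in wildtype pools and at 1882, 2041, 2385 and 3080 CPM in mutant pools (-0.11 ± 0.168). MDH1, 1 row that stands for mdh1aa and mdh1ab alike, ran from 1334 to 1713 CPM and from 1347 to 2194 CPM (0.07 ± 0.167). Mutant replicate 4 held the highest value of all pools for SUCLG1, both FH rows, MDH2 and MDH1.

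Ratios between members of one enzyme or family cancel what moves both genes from pool to pool. For 13 pairs the log2 ratio of CPM was compared between genotypes with a two-sided exact permutation test over the 8 pools, whose smallest possible p is 0.0286. Of these, 4 pairs reached that smallest p, and 0 passed the threshold after Benjamini-Hochberg adjustment over the 13 pairs (adjusted p = 0.093 for each of the 4, exact permutation test). With that floor, 4 pairs among 13 could not pass however well they separated, so the 0 is no evidence of unchanged ratios. No background share of separated ratios was computed, so the count of 4 is not read as a result. Among single genes, 11.7% of all tested genes were without overlap in either direction. Both pairings of HADHA are among the 4, and they share that gene. The ratio of SUCLA2 to SUCLG2 had a log2 value of 2.75, 2.74, 2.82 and 2.82 in the wildtype pools and of 3.06, 3.15, 3.03 and 3.18 in the mutant pools. The groups did not overlap, and the means of 2.78 ± 0.0435 and 3.11 ± 0.0714 (SD, n = 4) differed by 0.326, between 0.301 and 0.35 when single pools were left out. Per length, the ATP-forming subunit made up 88.6 ± 0.305% of both β subunits' transcripts in wildtype and 90.7 ± 0.417% in mutant pools. SUCLA2 and SUCLG2 have 2111 and 2390 exonic bases. With the length trend removed, their log2 fold changes were 0.20 and -0.15, and the part of length in their ratio was not tested.

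The other 3 pairs were the SLC27A1 rows and both pairings of HADHA. The log2 ratio of the chromosome 3 to the chromosome 1 row of SLC27A1 was 2.32, 2.46, 1.96 and 2.63 in wildtype pools and 3.13, 3.14, 3.04 and 2.79 in mutant pools. It was higher in every mutant pool, by 0.682 on average, and rests on the chromosome 1 row described above. The log2 ratio of HADHA to HADHB was -0.93, -1.11, -1.09 and -0.95 in wildtype pools and -0.88, -0.83, -0.88 and -0.87 in mutant pools, higher in every mutant pool by 0.154 on average. HADHA and HADHB have 3133 and 6981 exonic bases. With the length trend removed, their log2 fold changes were -0.01 and -0.18, and the part of length in their ratio was not tested either. The log2 ratio of hadhaa to HADHA was 0.28, 0.38, 0.42 and 0.28 in wildtype pools and 0.25, 0.17, 0.25 and 0.21 in mutant pools, lower in every mutant pool by a difference of -0.116. Among the other 9 pairs the groups overlapped. The nearest of them were ACSL1 over acsl1b (0.505) and IDH3A over IDH3G (0.2), each with p = 0.0857 and adjusted p = 0.186 (exact permutation test), and for cpt1ab over CPT1B the difference was -0.0513 (p = 0.914, exact permutation test).

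**Figure D5:**
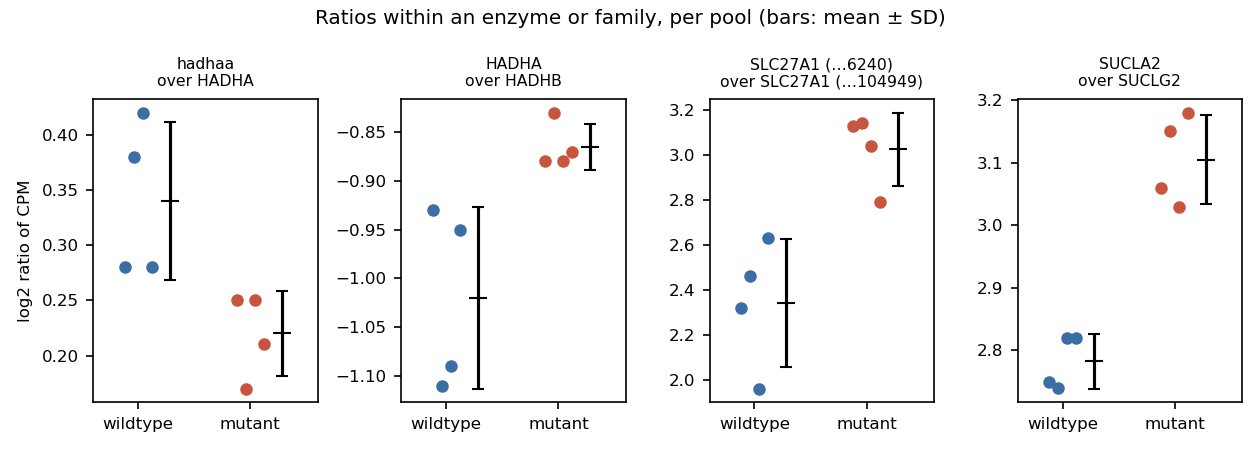
Log2 ratio of CPM between members of one enzyme or family for the 4 of 13 pairs whose genotypes did not overlap, 1 point per pool (blue wildtype, red mutant) with the mean and SD of each group. No background share of such ratios was computed. Each panel has its own log2 axis, which does not start at 0, and SUCLA2 over SUCLG2 runs from 2.74 to 2.82 in wildtype and from 3.03 to 3.18 in mutant pools.

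Further genes of both pathways were described from companion lists that hold no member. Of 63 tested companions of fatty acid oxidation (peroxisomal oxidation, other acyl-CoA synthetases, lipases, ketone enzymes and regulators), 1 fell and 0 rose past the threshold (0.88% and 1.14% of all genes), and 10 had an unadjusted p under 0.05 (edgeR, 18.0% of all genes). DESeq2 called 5 of the 63 (6.17% of all genes) and limma-voom 1 (2.06% of all genes). These shares are near the background, and the median log2 fold change of the companions was 0.00. The gene that fell was CROT, the peroxisomal carnitine octanoyltransferase, which readies shortened chains for export to mitochondria. It was at 53.4, 63.2, 53.2 and 45.8 CPM in wildtype pools and at 34.6, 39.9, 38.6 and 36.4 CPM in mutant pools. Every mutant pool was below every wildtype pool, with a log2 fold change of -0.53 ± 0.118 (adjusted p = 0.0465, edgeR). The call was lost when any pool other than wildtype replicate 4 was left out, with adjusted p up to 0.133 (without wildtype replicate 2, where the log2 fold change was -0.44).

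Of 39 tested companions of the TCA cycle (aconitases, succinate dehydrogenase, pyruvate dehydrogenase, malic enzymes, transaminases and mitochondrial carriers), 0 passed the threshold with edgeR, 4 had an unadjusted p under 0.05 (18.0% of all genes), DESeq2 called 2 (6.17% of all genes) and limma-voom 0. These shares are below the background, and the median log2 fold change was 0.05. The 4 genes with the smallest p are given as values only. The lowest p belonged to slc25a1a, a mitochondrial citrate carrier gene, at 17.2, 17.6, 19.96 and 10.8 CPM in wildtype pools and at 7.02, 10.8, 7.12 and 10.5 CPM in mutant pools. The closest values of the groups were wildtype replicate 4 and mutant replicate 2, which nearly met (-0.89 ± 0.211, adjusted p = 0.0566, edgeR). ALDH5A1, which makes succinate from succinic semialdehyde, went from 7.31 ± 1.09 to 4.75 ± 0.544 CPM (SD, n = 4) without overlap (-0.62 ± 0.16). The malic enzyme ME2 went from 71.3 ± 4.18 to 89.5 ± 10.3 CPM (SD, n = 4) without overlap (0.33 ± 0.114), and the second citrate carrier row, SLC25A1 (ENSDARG00000076381), had -0.93 ± 0.413 with overlap. Their adjusted p-values were 0.0731, 0.163 and 0.264 (edgeR).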

How the data were processed

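The authors deposited raw counts of reads per gene, 1 column per pool; per the file headers they were made with featureCounts 2.0.3 over exons of the Ensembl 109 annotation of GRCz11 with strand setting 2. The submitters' processing notes also name FastQC, MultiQC, fastp and STAR, with versions not given in the sources used here. Libraries came from a directional kit, per the labels' protocols.

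Members and companion lists were chosen with earlier results of these data known. Symbols came from a table of gene IDs, in which 29201 of the 32520 rows had one. Of 28 fatty acid oxidation names, 23 matched by symbol and 5 after a paralog suffix was dropped; of 15 TCA cycle names, 12 and 3. No member was unmatched.

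Genes were filtered with filterByExpr (minimum count 10), scaled with TMM and tested in edgeR 4.0.16 under R 4.3.3, on all 8 pools and with no term beside genotype; log2 CPM used a prior count of 2. SE is the log2 fold change divided by the square root of F. Ratios of 13 pairs were tested by exact permutation; a pair of MDH1 copies could not be formed. Per-pool values are given for members with an unadjusted p under 0.05, the highest and lowest fold changes of each pathway, pair members and 6 enzymes of regulated or entry steps; companions are named when past the threshold, otherwise the 4 with the smallest p. Alternatives were other scalings, filters and tests (DESeq2 1.42.0, limma-voom 3.58.1), a surrogate variable (sva 3.50.0), a replicate block, single pools left out and a length trend removed (lowess span 0.3). The scripts were tested on simulated data. DESeq2, used as an alternative only, made more false calls there and was not held to the limit on false calls set for the other tests. Nothing says how fish were assigned to pools, so p-values reflect differences among pools, which may be technical.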

Additional observations from a re-analysis of the deposited data

Results flagged for a closer look

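Within each group of 4 pools, the gap between an extreme pool and its nearest neighbour was compared with the range of the group, and 3 of 108 groups of values had a gap above Dixon's 95% critical value; chance gives such a gap in about 1 group in 20. The uncoupling protein gene ucp3 was at 30.9 CPM in mutant replicate 4 and between 14.5 and 15.6 CPM in the other mutant pools, a gap of 0.902 of the range on the log2 scale. The erythrocyte markers had a mean log2 CPM of 5.56 in wildtype replicate 4 and of 6.57 to 6.63 in the other wildtype pools, a gap of 0.944 of the range. The skeletal muscle markers had a mean log2 CPM of 2.46 in wildtype replicate 1 and of 1.04 to 1.16 in the other wildtype pools, a gap of 0.918 of the range. The part of these markers in the levels of the fatty acid oxidation and TCA cycle genes was not tested.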

How the results depend on the processing

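In each of the 19 fits, 0 members of either pathway passed the threshold. The median log2 fold change of fatty acid oxidation stayed below 0, from -0.22 to -0.04 with single pools left out. That sign is no test of a difference. Mean log2 CPM of these genes was 7.13 ± 0.153 in wildtype and 7.03 ± 0.282 in mutant pools (SD, n = 4), with overlap. The TCA cycle median ran from -0.11 to 0.10 with single pools left out and so has no direction. Of 817 member values under alternatives, 75 had the other sign than the main value, none of them called. Companions of fatty acid oxidation past the threshold numbered 1, against 0 with library totals, the replicate block or 1 surrogate variable, 2 with no filter, with the length trend removed or with that and mutant replicate 4 left out, 5 with DESeq2, 4 at an adjusted p under 0.1, and 0 to 3 with single pools left out. TCA cycle companions numbered 0, against 1 with no filter or the length trend removed, 2 with DESeq2 or at an adjusted p under 0.1, and 0 to 3 with single pools left out. Over all genes, 363 calls became 157 with library totals, 1107 with DESeq2, 210 with the replicate block, 892 at an adjusted p under 0.1, and 68 to 473 with single pools left out (lowest without mutant replicate 3, highest without wildtype replicate 4). The cause of these shifts was not tested. Deviations of same-numbered pools of the 2 genotypes had correlations of 0.246, -0.071, 0.036 and -0.066, and those of differently numbered pools ran from -0.203 to 0.143. Only the pools numbered 1 lay above that range, and the numbers were not taken to pair the pools. Under the block 0 members were called, CROT had an adjusted p of 0.0729 (edgeR), and the pair ratios had a smallest possible p of 0.125 (exact sign-flip test). Members at a few CPM or fewer, such as CD36, are limited by their counts.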

Other observations

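Some companions of fatty acid oxidation lay without overlap between genotypes and are named here after their values were seen. In all, 4 of the 63 tested companions were higher in every mutant pool than in any wildtype pool and 3 were lower, where 6.27% and 5.48% of all tested genes were. ACSL3, a long-chain acyl-CoA synthetase, was at 17.5 ± 2.55 CPM in wildtype and at 26.6 ± 3.79 CPM in mutant pools (SD, n = 4), with a log2 fold change of 0.60 ± 0.143 and an adjusted p of 0.0566 (edgeR), which was 0.0357 without mutant replicate 4. LPL, lipoprotein lipase, went from 203 ± 51.8 to 308.5 ± 37 CPM (SD, n = 4; 0.61 ± 0.19, adjusted p = 0.126, edgeR). ACACA, the acetyl-CoA carboxylase that starts fatty acid synthesis, went from 42.1 ± 4.16 to 56.0 ± 6.03 CPM (SD, n = 4; 0.41 ± 0.117, adjusted p = 0.0969, edgeR). The fourth was the cytosolic acetyl-CoA synthetase ACSS2 (0.23 ± 0.105). Lower beside CROT were the mitochondrial acetyl-CoA synthetase ACSS1, from 73.2 ± 5.24 to 55.0 ± 4.83 CPM (SD, n = 4, log2 fold change -0.41 ± 0.109, adjusted p = 0.0764, edgeR), and cratb, a carnitine acetyltransferase gene (-0.21 ± 0.115). Without mutant replicate 4, 2 of the 63 companions were called (2.07% of all tested genes), ACSL3 and MLYCD. There MLYCD was lower (-1.29, adjusted p = 0.0433, edgeR). Over all 8 pools MLYCD overlapped between genotypes (-0.46 ± 0.46, adjusted p = 0.654, edgeR) and was highest in mutant replicate 4.

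PPARGC1A, a coactivator of mitochondrial genes, overlapped between genotypes, at 35.2, 59.3, 55.6 and 23.6 CPM in wildtype pools and at 19.4, 21.3, 28.1 and 40.5 CPM in mutant pools (-0.67 ± 0.295, adjusted p = 0.262, edgeR). Its highest mutant value was in replicate 4. PPARA, a receptor that drives fatty acid oxidation genes, was at 9.68, 16.7, 22.7 and 19.2 CPM and at 6.89, 10.1, 17.99 and 33.7 CPM, with overlap (0.01 ± 0.418). Some other regulators had other orders of pools. The paralog pparaa was highest in mutant replicate 1 (18.2 CPM) and lowest in mutant replicate 3 (12.2 CPM). The coactivator ppargc1b was lowest in mutant replicate 4 (60.5 CPM). The receptor ESRRA was highest in mutant replicate 1 (43.0 CPM) and lowest in mutant replicate 4 (32.8 CPM). By contrast, ESRRG was highest in mutant replicate 4 (13.67 CPM). Its mutant replicate 1 (7.715 CPM) was next to the lowest pool, wildtype replicate 3 (7.689 CPM).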
